A study of Mus musculus with 9 samples.

Results

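Ligands that draw leukocytes into tissue or feed macrophages were examined in the glomeruli, the filtering units of the kidney, of mice lacking Cosmc in podocytes. The set holds 10 genes, chosen by name from the 16867 listed genes: the chemokines Ccl2, Ccl20, Cxcl1, Cxcl2, Cxcl10, Cxcl12, Cxcl16 and Cx3cl1, and the macrophage growth factors Il34 and Csf1. The choice was made with earlier results of these data known. All 10 were found and all passed the filter on low values. Podocytes are epithelial cells on the outer face of the glomerular capillaries, and Cosmc, listed as C1galt1c1, is the X-linked chaperone needed to make core 1 mucin-type O-glycans. The 4 Cosmc KO males carried the Podo-Cre transgene with a floxed Cosmc allele (Podo-Cre; Cosmc Y/flox) and were 35, 34, 31 and 30 days old in the order of their numbers 1 to 4. The 5 control males were of mixed genotype. Controls 1, 4 and 5 were Podo-Cre; Cosmc Y/+ at 35, 30 and 30 days, control 2 was Cosmc Y/flox without Cre at 34 days, and control 3 was Cosmc Y/+ without Cre at 31 days. All 9 animals were C57BL/6, and each library was made from poly(A) RNA of glomeruli collected after perfusion with magnetic beads. The promoter that drives the transgene was not given in the sources used here.

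Values below are normalised counts, that is reads per gene divided by 1 size factor per library, and groups are given as mean ± SD. Differences between the groups are given as log2 fold changes ± SE, Cosmc KO minus control, fitted by limma to log2(value + 1). A gene was called at an adjusted p under 0.05 over the 16764 genes tested. Between 31.5 and 58.1 M reads were recovered per library. The targeted gene C1galt1c1 averaged 961 ± 159 in Cosmc KO glomeruli (n = 4) and 1468 ± 69.7 in control glomeruli (n = 5), with no overlap between the groups (limma log2 fold change -0.63 ± 0.11, adjusted p = 0.0111). Markers of the labelled tissue were present, and none of the 12 podocyte, 10 endothelial or 10 mesangial markers was at 0 in any library. The podocyte score, the mean log2(value + 1) of 12 markers, was 13.7 to 15.0 in Cosmc KO and 15.1 to 15.7 in control. The same score over 20 proximal tubule markers was 10.4, 13.3, 13.2 and 12.3 in Cosmc KO 1 to 4 and 9.48 to 12.0 in control, so that Cosmc KO 2, 3 and 4 lay above all controls. In whole glomeruli, fewer cells of a type and less RNA per cell cannot be told apart.

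Chemokines are small secreted or membrane-held proteins that guide leukocytes through G-protein-coupled receptors. Ccl2 attracts monocytes through Ccr2, Cxcl1 and Cxcl2 attract neutrophils through Cxcr2, Cxcl10 attracts activated T cells through Cxcr3, and Ccl20 attracts Ccr6-bearing lymphocytes and dendritic cells. Cxcl16 and Cx3cl1 are made as membrane proteins, bind Cxcr6 and Cx3cr1, and can be released by proteases, while Cxcl12 acts through Cxcr4 and is made by podocytes in the glomerulus. Il34 and Csf1 are alternative ligands of Csf1r, the receptor on which most tissue macrophages depend. Transcription of several inflammatory chemokines is switched on by NF-κB.

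Of the 10 genes, 7 rose, 1 fell and 2 were not called, against a background in which 7.74% of all genes tested were called. Called higher were 4.16% of all genes and called lower 3.58%. Because the 10 genes were chosen with earlier results known, the shares beside their counts are no test of the set. Ccl2 and Ccl20 had the widest differences, Cxcl2 and Cxcl10 followed, and Cxcl1, Cxcl16 and Cx3cl1 had smaller ones. Cxcl12 was the gene that fell, and Il34 and Csf1 were not called. The median log2 fold change of the 10 genes was 0.99, against 0.00353 over all genes tested. In 7 of the 10 the libraries of the 2 groups did not overlap, with 6 higher and 1 lower in Cosmc KO, against 11.9% of all genes without overlap, 5.83% higher and 6.11% lower. Among the 6, Ccl2, Ccl20 and Cxcl2 passed the filter on low values only with the Cosmc KO libraries, in which they were high. The plot of values by library shows each gene.

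**Figure D1:**
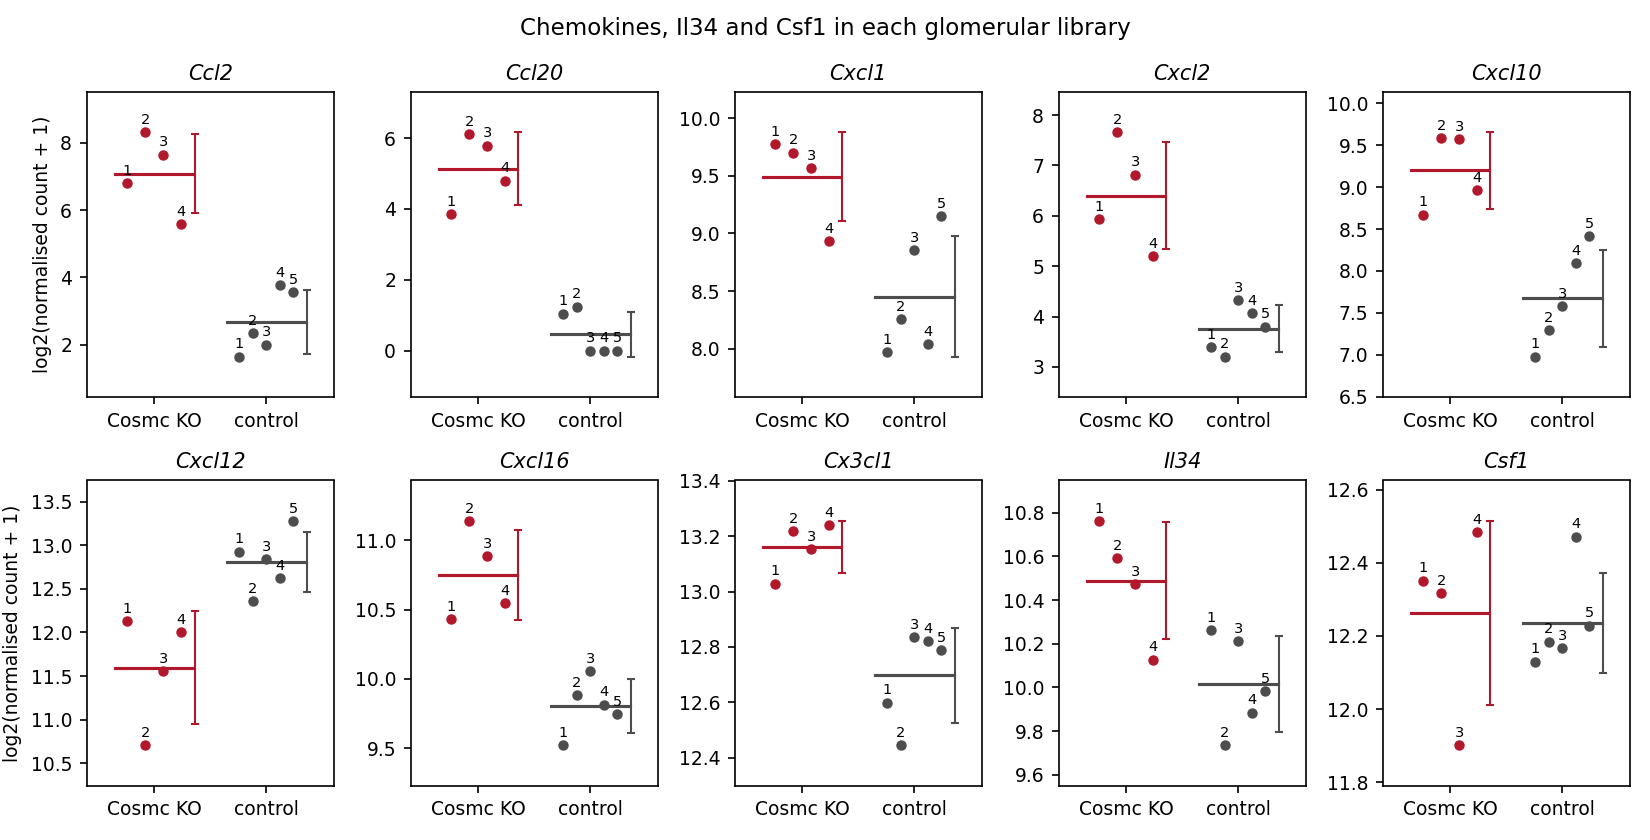
Each panel plots 1 gene on the log2(normalised count + 1) scale, with the 4 Cosmc KO libraries on the left and the 5 control libraries on the right, numbered as in the labels. Horizontal lines are group means and bars are ± SD. In Ccl2, Ccl20, Cxcl2, Cxcl10, Cxcl16 and Cx3cl1 every Cosmc KO library lies above every control library, in Cxcl12 every one lies below, and the groups overlap in Cxcl1, Il34 and Csf1.

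The 250 bases before the RefSeq start site could be read for 7 of the 10 genes (RefSeq, GRCm38.p6). They are shown for 4 genes that rose, and for Cxcl12, which fell, because the 4 hold a match to the NF-κB consensus and Cxcl12 does not. The windows of Cx3cl1 and Csf1 were read and are not shown. Cx3cl1 rose and holds no match, and Csf1 holds a match and was not called, so a match did not go with a rise throughout. Capitals mark the matched bases, and each sequence runs 5′ to 3′ towards the gene.
Ccl20, chr1:83116516-83116765, plus strand: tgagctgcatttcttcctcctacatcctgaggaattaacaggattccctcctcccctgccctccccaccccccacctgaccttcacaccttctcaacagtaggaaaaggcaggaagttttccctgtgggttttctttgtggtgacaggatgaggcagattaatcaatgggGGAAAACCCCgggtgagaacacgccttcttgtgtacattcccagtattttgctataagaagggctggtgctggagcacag
Cxcl1, chr5:90890995-90891244, plus strand: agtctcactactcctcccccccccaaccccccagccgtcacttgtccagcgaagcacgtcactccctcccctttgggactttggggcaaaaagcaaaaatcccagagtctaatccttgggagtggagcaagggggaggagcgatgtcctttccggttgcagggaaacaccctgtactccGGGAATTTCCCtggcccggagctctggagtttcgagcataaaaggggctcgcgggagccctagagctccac
Cxcl2, chr5:90903649-90903898, plus strand: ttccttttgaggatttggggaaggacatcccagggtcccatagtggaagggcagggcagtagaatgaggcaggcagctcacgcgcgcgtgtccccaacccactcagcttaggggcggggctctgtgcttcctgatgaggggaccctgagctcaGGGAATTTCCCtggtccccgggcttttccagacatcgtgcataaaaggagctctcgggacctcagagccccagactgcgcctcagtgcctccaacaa
Cxcl10, chr5:92348890-92349139, minus strand: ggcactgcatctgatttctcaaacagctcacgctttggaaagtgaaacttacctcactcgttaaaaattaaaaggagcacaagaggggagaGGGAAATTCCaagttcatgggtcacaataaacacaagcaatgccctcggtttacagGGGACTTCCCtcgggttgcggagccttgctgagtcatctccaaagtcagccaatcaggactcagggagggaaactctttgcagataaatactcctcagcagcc
Cxcl12, chr6:117168285-117168534, plus strand: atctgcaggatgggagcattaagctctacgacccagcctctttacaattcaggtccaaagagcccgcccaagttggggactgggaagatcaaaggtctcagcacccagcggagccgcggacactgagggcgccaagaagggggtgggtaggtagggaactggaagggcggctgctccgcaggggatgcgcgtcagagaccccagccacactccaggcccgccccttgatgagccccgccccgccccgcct

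The NF-κB consensus, searched on both strands, occurred in 1279 of 32817 windows of this length (3.90%), those of Ccl20, Cxcl1, Cxcl2, Cxcl10 and Csf1 among them. It occurred in the windows of neither Cxcl12 nor Cx3cl1. The neighbouring genes Cxcl1 and Cxcl2 held the same 10 bases, GGGAATTTCC, beginning 71 bases before the start of Cxcl1 and 97 bases before that of Cxcl2. A second match on the minus strand overlaps this one, shifted by 1 base, so the capitals cover both. These 10 bases occurred in 28 of 32817 windows (0.0853%). Ccl20 held a match on the minus strand that begins 80 bases before its start, and Cxcl10 held plus-strand matches at 159 and 103 bases. Cxcl10 also held the interferon-response core (GAAA, any 2 bases and GAAA again, searched on both strands), beginning 213 bases before its start, which occurred in 974 of 32817 windows (2.97%). Csf1 held a consensus match on the minus strand at 154 bases, and its level was not called between the groups. A match describes letters in the window and was not tested for binding.

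Ccl2, the monocyte attractant (chr11:82035571-82037453, plus strand, GRCm38), had 110, 317, 200 and 46.8 normalised counts in Cosmc KO 1 to 4, against 2.12, 4.10, 3.00, 12.6 and 10.8 in controls 1 to 5. The lowest Cosmc KO library, number 4, was above the highest control, number 4. Its mean was 168 ± 117 in Cosmc KO and 6.52 ± 4.82 in control (SD, n = 4 and 5), and the limma log2 fold change was 4.42 ± 0.62 (adjusted p = 0.00319). The control level was near the counting floor, with 772 reads over the Cosmc KO libraries and 30 over the control libraries. Scaled for depth, the read ratio was 25.0 with a 95% interval of 17.4 to 37.3 that covers counting error only. The exons of Ccl2 overlap no exon of another gene.

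Ccl20 (chr1:83116766-83119167, plus strand), the ligand of Ccr6, was nearly undetected in control glomeruli. Its values were 13.5, 68.2, 54.3 and 26.9 in Cosmc KO 1 to 4, and 1.06, 1.37, 0, 0 and 0 in controls 1 to 5. These stand for 11, 76, 71 and 39 reads in the Cosmc KO libraries and for 1, 1, 0, 0 and 0 reads in the controls. All Cosmc KO libraries were above all controls, and Cosmc KO 1 was the lowest of them. The gene reached a value of 10 in 4 Cosmc KO libraries and 0 control libraries, so it passed the filter through the group in which it was high. The limma log2 fold change was 4.68 ± 0.51 (adjusted p = 0.00104). The depth-scaled read ratio of 197 to 2 reads was 95.6, with a 95% counting interval of 26.1 to 795. In the authors' deposited table the log2 fold change is 6.50, without the added 1 that compresses low values here.

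Cxcl2 (chr5:90903871-90905938, plus strand), a neutrophil attractant, had 60.0, 201, 112 and 35.8 normalised counts in Cosmc KO 1 to 4 and 9.52, 8.20, 19.0, 15.8 and 12.9 in controls 1 to 5. The groups did not overlap, and Cosmc KO 2 was the highest and Cosmc KO 4 the lowest of the KO libraries, as for Ccl2. Means were 102 ± 73.1 in Cosmc KO and 13.1 ± 4.45 in control, and the limma log2 fold change was 2.64 ± 0.47 (adjusted p = 0.00982). Cxcl2 reached 10 in 4 Cosmc KO and 3 control libraries, so it too passed the filter only with the Cosmc KO libraries.

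Cxcl1 (chr5:90891241-90893115, plus strand) lies next to Cxcl2 and binds the same receptor, and it differed less and with overlap. Its values were 875, 830, 756 and 488 in Cosmc KO 1 to 4 and 250, 305, 462, 262 and 566 in controls 1 to 5. Control 5 exceeded Cosmc KO 4, while the other 3 Cosmc KO libraries lay above all controls. Mean levels were 737 ± 173 in Cosmc KO and 369 ± 139 in control. With a limma log2 fold change of 1.04 ± 0.27 and an adjusted p of 0.0476, the call was narrow and was lost in 6 of the 9 fits that left out 1 library (adjusted p up to 0.132). The paired limma fit, with the animal number as a block, gave 1.21 (adjusted p = 0.00389). The quasi-likelihood test of edgeR on recovered reads, which called 8.71% of all genes, gave 0.98 (adjusted p = 0.0527).

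Cxcl10 (chr5:92346638-92348889, minus strand), an interferon-inducible T cell attractant, had 407, 768, 759 and 499 normalised counts in Cosmc KO 1 to 4 and 125, 156, 190, 272 and 340 in controls 1 to 5. The groups did not overlap, although control 5 came close to Cosmc KO 1. Averages of 608 ± 183 in Cosmc KO and 217 ± 88.2 in control gave a limma log2 fold change of 1.53 ± 0.31 (adjusted p = 0.0192). Without Cosmc KO 2 or Cosmc KO 3 the call was lost (limma adjusted p = 0.0613 and 0.0681). Of its 2252 exon bases, which cover the whole gene span, 133 overlap exons of Art3 on the other strand. Reads there cannot be told apart because the strand setting of the counting was not given in the sources used here.

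The membrane-held chemokine Cxcl16 (chr11:70453983-70459984, minus strand) had 1381, 2256, 1893 and 1495 normalised counts in Cosmc KO 1 to 4 and 734, 944, 1062, 900 and 856 in controls 1 to 5. Each Cosmc KO library was above each control. Means were 1756 ± 399 in Cosmc KO and 899 ± 120 in control (limma log2 fold change 0.95 ± 0.16, adjusted p = 0.00732). Its exons share 552 of 3021 bases with exons of Zmynd15 on the other strand, with the same limit on telling reads apart.

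Cx3cl1, or fractalkine (chr8:94772009-94782427, plus strand), also a membrane-held ligand, varied least of the 10 among Cosmc KO animals. It had 8357, 9530, 9111 and 9677 normalised counts in Cosmc KO 1 to 4 and 6198, 5573, 7304, 7239 and 7069 in controls 1 to 5. No control reached the lowest Cosmc KO library, number 1. The means of 9169 ± 592 in Cosmc KO and 6677 ± 760 in control gave a limma log2 fold change of 0.46 ± 0.10 (adjusted p = 0.0217). The call was lost in 4 of 9 fits without 1 library, those leaving out Cosmc KO 2, 3 or 4 or control 1 (adjusted p up to 0.0681).

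Cxcl12 (chr6:117168535-117181367, plus strand), a homeostatic chemokine, moved the other way. Its values were 4474, 1669, 3003 and 4102 in Cosmc KO 1 to 4 and 7781, 5249, 7315, 6292 and 9942 in controls 1 to 5. All Cosmc KO libraries were below all controls, and Cosmc KO 2 was the lowest. Means were 3312 ± 1261 in Cosmc KO and 7316 ± 1763 in control, and the limma log2 fold change was -1.21 ± 0.28 (adjusted p = 0.0327). The call was lost without Cosmc KO 3 and without control 1, 3, 4 or 5 (adjusted p up to 0.0919).

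The levels of Cxcl12 in the Cosmc KO libraries ran in the same order as the podocyte score, 15.0, 14.6, 14.2 and 13.7 in Cosmc KO 1, 4, 3 and 2. The proximal tubule score ran in exactly the reverse order, so this order cannot tell the scores apart. Of the 12 podocyte markers 6 fell and none rose, with a median log2 fold change of -0.89. Limma called 11 lower without Cosmc KO 1, none without Cosmc KO 3 and 2 without any other single library. Those fits called 29.1% of all genes without Cosmc KO 1 and 3.12% without Cosmc KO 3, against 7.74% with all libraries. Plce1, a podocyte phospholipase, averaged 5961 ± 2846 in Cosmc KO and 15094 ± 2536 in control (limma log2 fold change -1.45 ± 0.28, adjusted p = 0.0145). With the podocyte score as a covariate, an alternative added after seeing the data, the Cxcl12 log2 fold change was -0.26 ± 0.24 (limma adjusted p = 0.666). That fit called Ccl20 among the 10 genes and 1.83% of all genes. The score did not overlap between the groups, so group and score cannot be told apart in that fit.

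Il34 (chr8:110741829-110805924, minus strand) had 1736, 1542, 1421 and 1117 normalised counts in Cosmc KO 1 to 4 and 1226, 851, 1186, 944 and 1012 in controls 1 to 5. Cosmc KO 4 lay within the control range, and the other 3 Cosmc KO libraries were above it. Means were 1454 ± 259 in Cosmc KO and 1044 ± 159 in control, and the gene was not called by limma (log2 fold change 0.47 ± 0.15, adjusted p = 0.0820). The authors' deposited table gives 0.48 with an adjusted p of 0.0340, and the paired limma fit gave 0.47 with an adjusted p of 0.0336, each past the threshold. Those tests called 16.0% and 16.6% of all genes, against the 7.74% above. Limma also called Il34 without Cosmc KO 4 (0.59 ± 0.14, adjusted p = 0.0473), and in none of the other 8 fits without 1 library (adjusted p 0.0809 to 0.203). Exons of the predicted genes Gm15894 and Gm15895 on the other strand overlap 97 of its 1959 exon bases.

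Csf1 (chr3:107741048-107760469, minus strand), the other Csf1r ligand, had 5222, 5099, 3823 and 5725 normalised counts in Cosmc KO 1 to 4 and 4480, 4652, 4597, 5680 and 4796 in controls 1 to 5. The ranges overlapped widely, and Cosmc KO 3 was the lowest library of all 9. Means were 4967 ± 810 in Cosmc KO and 4841 ± 483 in control (limma log2 fold change 0.03 ± 0.12, adjusted p = 0.902). The value does not show that the levels are equal.

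**Figure D2:**
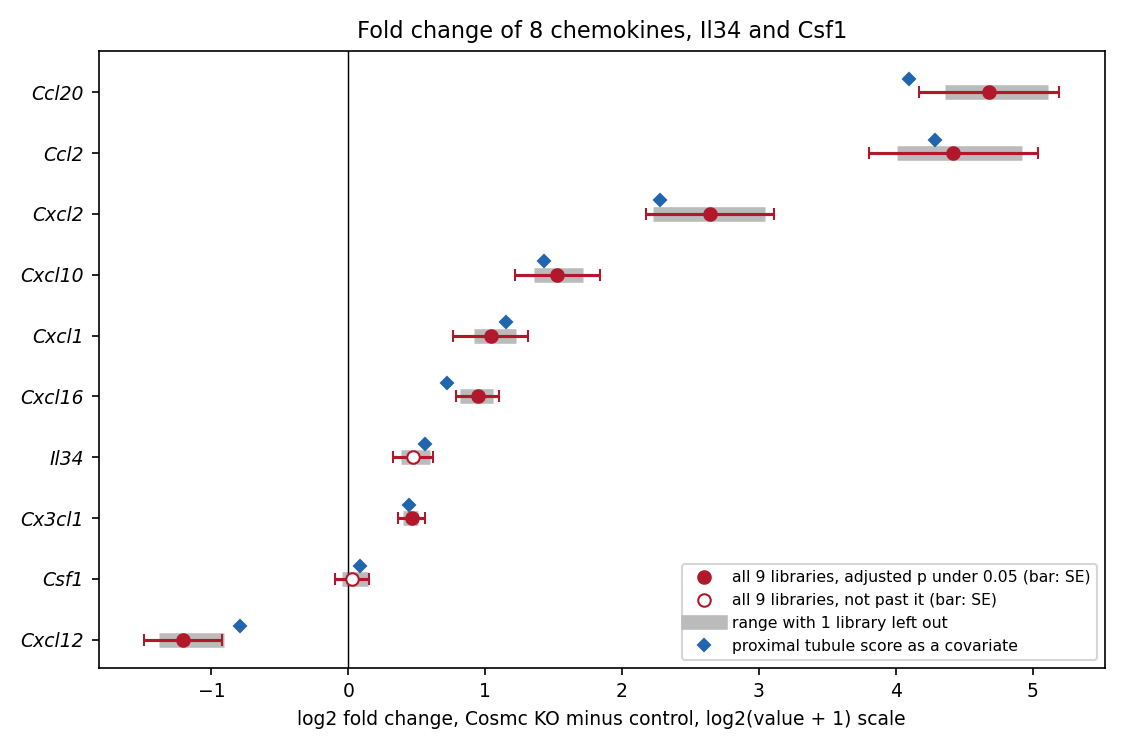
Points are limma log2 fold changes of the 10 genes, on the log2(value + 1) scale with all 9 libraries, and values above 0 are higher in Cosmc KO. Bars are ± SE, filled points passed an adjusted p of 0.05, grey bands span the 9 fits that left out 1 library, and diamonds are fits that add the proximal tubule score. Ccl20 and Ccl2 lie above 4, Cxcl12 is the gene below 0, and Csf1 is the gene whose grey band reaches 0.

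The Cosmc KO animals differed among themselves most for the genes with the widest differences. The highest Cosmc KO library held 6.76 times the lowest for Ccl2, 5.61 times for Cxcl2 and 5.06 times for Ccl20. That ratio was 1.79 for Cxcl1, 1.89 for Cxcl10, 1.63 for Cxcl16, 1.16 for Cx3cl1 and 2.68 for Cxcl12. From high to low the Cosmc KO animals ran 2, 3, 1, 4 for both Ccl2 and Cxcl2, and 2, 3, 4, 1 for Ccl20, Cxcl10 and Cxcl16. The proximal tubule score ran 2, 3, 4, 1 as well, and the podocyte score ran the reverse, 1, 4, 3, 2. Order over these libraries cannot tell the 2 scores apart. Cxcl1 and Il34 ran 1, 2, 3, 4. With the tubule score added as a covariate, Ccl20 had a log2 fold change of 4.10, Ccl2 4.29, Cxcl2 2.28, Cxcl10 1.43 and Cxcl16 0.72, and all 5 were still called by limma (adjusted p up to 0.0491). In that limma fit, which called 4.54% of all genes, the calls of Cxcl1 (1.15, adjusted p = 0.0667), Cx3cl1 (0.44, adjusted p = 0.0590) and Cxcl12 (-0.79, adjusted p = 0.0739) were lost. Without Cosmc KO 2 and 3, the libraries with the highest tubule scores, limma still called Ccl2 (3.53, adjusted p = 0.0422) and Ccl20 (3.87, adjusted p = 0.0151) among the 10, and 1.82% of all genes.

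Same-numbered animals were of the same age, and their differences are shown in the plot by number. Ccl2 was higher by 5.16, 5.96, 5.65 and 1.81 on the log2 scale in Cosmc KO 1 to 4 than in the control of the same number, and number 4 stood below the rest. Ccl20 differed by 2.81, 4.87, 5.79 and 4.80, with number 1 the smallest. Cxcl16 differed by 0.91, 1.26, 0.83 and 0.73, a narrow range. Il34 was higher in each pair, by 0.50, 0.86, 0.26 and 0.24, and Csf1 was not (0.22, 0.13, -0.27 and 0.01). Cxcl12 was lower in each pair, with differences of -0.80, -1.65, -1.28 and -0.62.

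**Figure D3:**
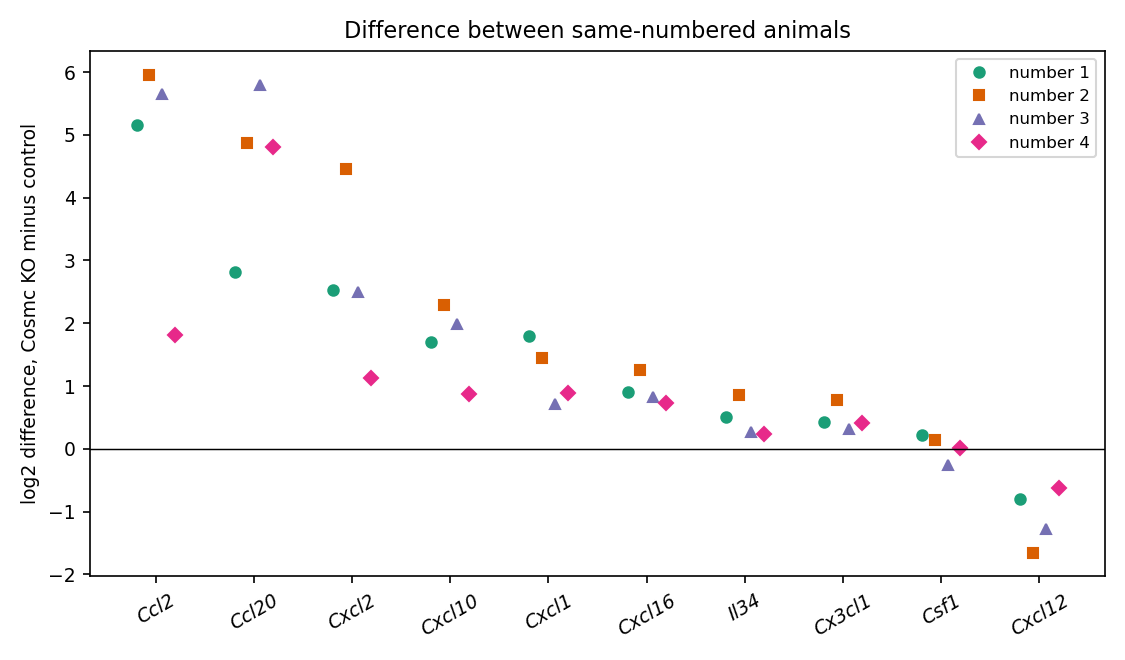
Each symbol is the log2 difference, Cosmc KO minus control, between the 2 animals that share a number and an age, for the 10 genes. All 4 symbols lie above 0 for the 7 genes that rose and for Il34, all 4 lie below 0 for Cxcl12, and those of Csf1 fall on both sides.

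The controls differed in Cre. With the 3 Cre-carrying controls alone as the comparison, limma called Ccl2 (4.10, adjusted p = 0.0323), Ccl20 (4.79, adjusted p = 0.00915) and Cxcl16 (1.06, adjusted p = 0.0288), and 2.61% of all genes. The other 5 calls were lost, with log2 fold changes of 1.11 for Cxcl1, 2.65 for Cxcl2, 1.37 for Cxcl10, 0.42 for Cx3cl1 and -1.34 for Cxcl12 (limma adjusted p from 0.0516 to 0.123). Among the controls, Cxcl12 averaged 8005 with Cre (n = 3) and 6282 without Cre (n = 2), and Cxcl16 averaged 830 with Cre and 1003 without Cre. Ccl2 averaged 8.51 with Cre and 3.55 without Cre, both near the counting floor, and Cxcl10 averaged 246 and 173. In relative terms the averages of Cxcl1, Cxcl2, Cx3cl1, Il34 and Csf1 were closer than these.

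Levels can be set beside each other between genes only after division by exon length, here all bases in any annotated exon. For Cxcl1, Cxcl2 and Cxcl10 these bases cover the whole gene span, so no intron is left out. Their values per kb may therefore be too low beside those of the other genes, and their places in the order carry this limit. Per kilobase of exon, Cx3cl1 was the most abundant of the 10 in both groups, at 2333 ± 151 normalised counts per kb in Cosmc KO and 1699 ± 193 in control, with no overlap with the next gene. In control glomeruli it was followed by Csf1 (917 ± 91.4) and Cxcl12 (895 ± 216), whose ranges overlapped, then by Il34 (533 ± 81.2) and Cxcl16 (298 ± 39.8). Cxcl1 (197 ± 74.2) overlapped with both Cxcl16 and Cxcl10 (96.2 ± 39.2). Cxcl2 (6.33 ± 2.15) and Ccl2 (5.73 ± 4.24) also overlapped, and Ccl20 (0.341 ± 0.473) was lowest. In Cosmc KO glomeruli Cxcl12 stood at 405 ± 154 per kb, below Csf1 (941 ± 153), Il34 (742 ± 132) and Cxcl16 (581 ± 132). Ccl2 there reached 148 ± 103 per kb, Cxcl2 49.4 ± 35.3 and Ccl20 28.6 ± 17.6. All neighbours in the Cosmc KO order overlapped except Cx3cl1 and Csf1.

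**Figure D4:**
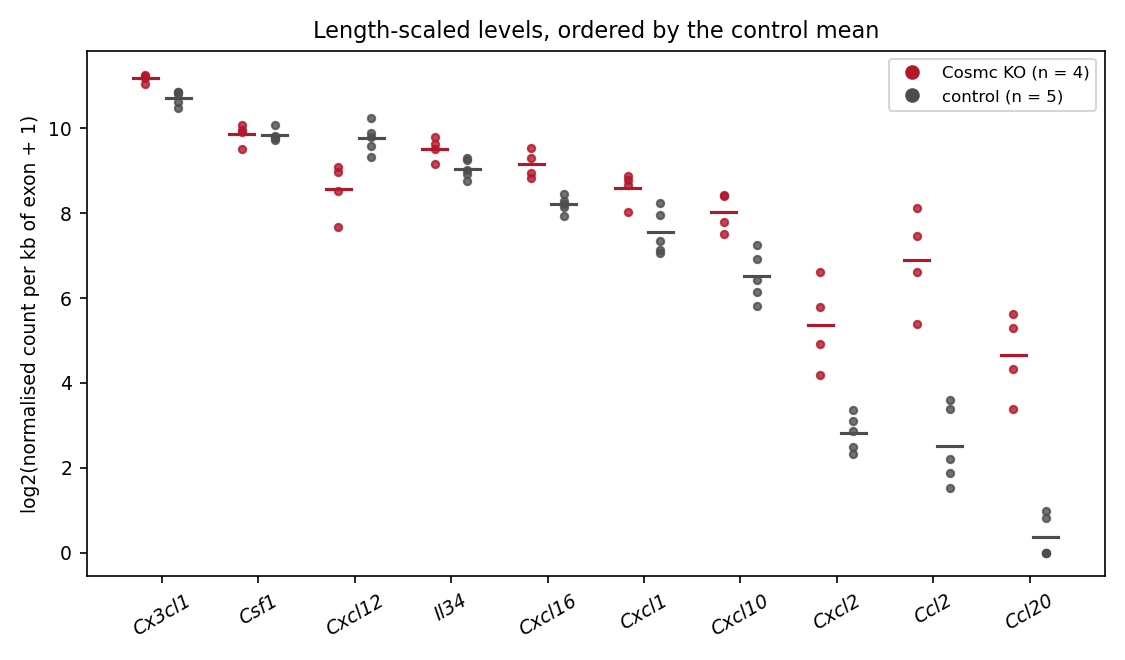
Points are libraries on the log2(normalised count per kb of exon + 1) scale, Cosmc KO on the left and control on the right of each gene, with lines at the group means and genes ordered by the control mean. Cx3cl1 is highest in both groups, and Ccl2, Cxcl2 and Ccl20 are the lowest 3 in both. The exon lengths of Cxcl1, Cxcl2 and Cxcl10 cover the whole gene span, so their points may lie too low.

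Other chemokine ligands, a list of 29 genes of which 16 have values and 15 were tested, gave 4 higher and none lower, with a median log2 fold change of 0.71. Of all genes tested, 7.74% were called in that fit. Cxcl13, the B cell attractant, had 9425, 7200, 6897 and 5170 normalised counts in Cosmc KO 1 to 4 and 1645, 1320, 4721, 2524 and 2732 in controls 1 to 5 (limma log2 fold change 1.58 ± 0.33, adjusted p = 0.0215). The groups did not overlap. Ccl17, a Ccr4 ligand, averaged 26.4 ± 9.43 in Cosmc KO and 6.28 ± 2.92 in control (limma 1.97 ± 0.38, adjusted p = 0.0143). Its values were 19.6 to 40.4 in Cosmc KO and 3.00 to 8.63 in control, so no control reached 10 and Ccl17, like Ccl20, passed the filter only through the group in which it was high. Ccl22, the other Ccr4 ligand, averaged 44.7 ± 21.9 in Cosmc KO and 16.7 ± 3.65 in control (limma 1.28 ± 0.31, adjusted p = 0.0377). Ccl9, a Ccr1 ligand, averaged 289 ± 49.2 in Cosmc KO and 129 ± 39.1 in control (limma 1.19 ± 0.23, adjusted p = 0.0145). Of these other ligands, 2 were called without Cosmc KO 2, Cosmc KO 3 or control 1, fits that called 3.55%, 3.12% and 4.29% of all genes. The Ccl22 call was lost in 7 of the 9 fits without 1 library (adjusted p up to 0.0947), that of Cxcl13 in 3 (up to 0.0639), and that of Ccl9 without Cosmc KO 3 (0.0538).

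Of the receptors that bind the 10 ligands, 12 of 15 have values, and 1 rose, none fell and the median log2 fold change was -0.17. A count of 1 in 12 is near the 7.74% of all genes called and is no result about the receptors as a list. The gene that rose was Csf1r, the shared receptor of Il34 and Csf1. It had 2824, 2012, 2739 and 2504 normalised counts in Cosmc KO 1 to 4 and 1049, 777, 983, 1419 and 1655 in controls 1 to 5. Every Cosmc KO library was above every control, and the limma log2 fold change was 1.14 ± 0.21 (adjusted p = 0.0116). The paired limma fit called 3 of the 12 receptors higher and 2 lower, and 16.6% of all genes.

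Among 10 other chemokine receptors none was called by limma, edgeR or DESeq2, with a median of -0.48. At an unadjusted limma p under 0.05, 1 was higher and 1 lower. Of all genes, limma called 7.74%, edgeR 8.71% and DESeq2 16.0%, and 4603 of 16764 passed the unadjusted p. The counts of these receptors are no result about them as a list. The most abundant were Ccrl2, which averaged 2641 ± 416 in Cosmc KO and 3385 ± 401 in control (limma -0.36 ± 0.12, adjusted p = 0.100), and Cmklr1, which averaged 1033 ± 165 in Cosmc KO and 948 ± 187 in control (limma 0.13 ± 0.17, adjusted p = 0.624). Among 7 other colony-stimulating factors and receptors none was called by limma or edgeR, with a median of 0.22. DESeq2 called 1 higher, as many as passed an unadjusted limma p under 0.05. A count of 1 in 7 is near the 16.0% of all genes that DESeq2 called and is no result about this list. Kitl, the ligand of Kit, averaged 7565 ± 2084 in Cosmc KO and 7836 ± 1364 in control (limma -0.07 ± 0.18, adjusted p = 0.829). Il3ra averaged 903 ± 159 in Cosmc KO and 615 ± 109 in control (limma 0.55 ± 0.16, adjusted p = 0.0688).

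Proteases known to cut these ligands were split, with 2 of 7 higher, 1 lower and a median log2 fold change of -0.04. The share of all genes called was 7.74%. Mmp12, a macrophage elastase that trims neutrophil-attracting chemokines, had 76.0, 92.4, 55.0 and 49.6 normalised counts in Cosmc KO 1 to 4 and 6.35, 4.10, 9.01, 14.7 and 5.39 in controls 1 to 5 (limma 3.03 ± 0.35, adjusted p = 0.00145). The groups lay well apart. Mmp2, a gelatinase that can inactivate Cxcl12, averaged 9981 ± 1010 in Cosmc KO and 5926 ± 658 in control (limma 0.75 ± 0.10, adjusted p = 0.00286). Dpp4, a membrane peptidase that trims Cxcl10 and Cxcl12, averaged 23684 ± 11194 in Cosmc KO and 46861 ± 7627 in control (limma -1.09 ± 0.28, adjusted p = 0.0426), and this call was lost in 8 of the 9 fits without 1 library (adjusted p up to 0.124).

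The NF-κB pathway and its early targets, 23 of 24 with values, gave 8 higher and none lower by limma, which called 7.74% of all genes. Without Cosmc KO 2 the list gave 5 higher, and 3.55% of all genes were called. Over the fits without 1 library it gave 5 to 11 higher, and those fits called 3.12% to 29.1% of all genes. All 23 had a positive log2 fold change, with a median of 0.55. This list was also chosen with earlier results of these data known, so its counts are no test of the pathway. Tnfaip3, an inhibitor of the pathway, had 2122, 1566, 1552 and 1858 normalised counts in Cosmc KO 1 to 4 and 950, 832, 871, 1002 and 1130 in controls 1 to 5 (limma 0.89 ± 0.12, adjusted p = 0.00324). All Cosmc KO libraries were above all controls, and Cosmc KO 1 was the highest, unlike for Ccl2. Nfkbie, which encodes another inhibitor, averaged 1543 ± 158 in Cosmc KO and 818 ± 138 in control (limma 0.93 ± 0.13, adjusted p = 0.00348). Nfkb2, a subunit, averaged 3137 ± 290 in Cosmc KO and 1885 ± 285 in control (limma 0.74 ± 0.12, adjusted p = 0.00561). Tnfrsf12a, the receptor of the cytokine TWEAK, had 1477, 3320, 2595 and 1398 normalised counts in Cosmc KO 1 to 4 and 719, 745, 482, 603 and 503 in controls 1 to 5 (limma 1.77 ± 0.26, adjusted p = 0.00441). Its highest library was Cosmc KO 2 and its lowest Cosmc KO library was number 4, as for Ccl2 and Cxcl2.

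**Figure D5:**
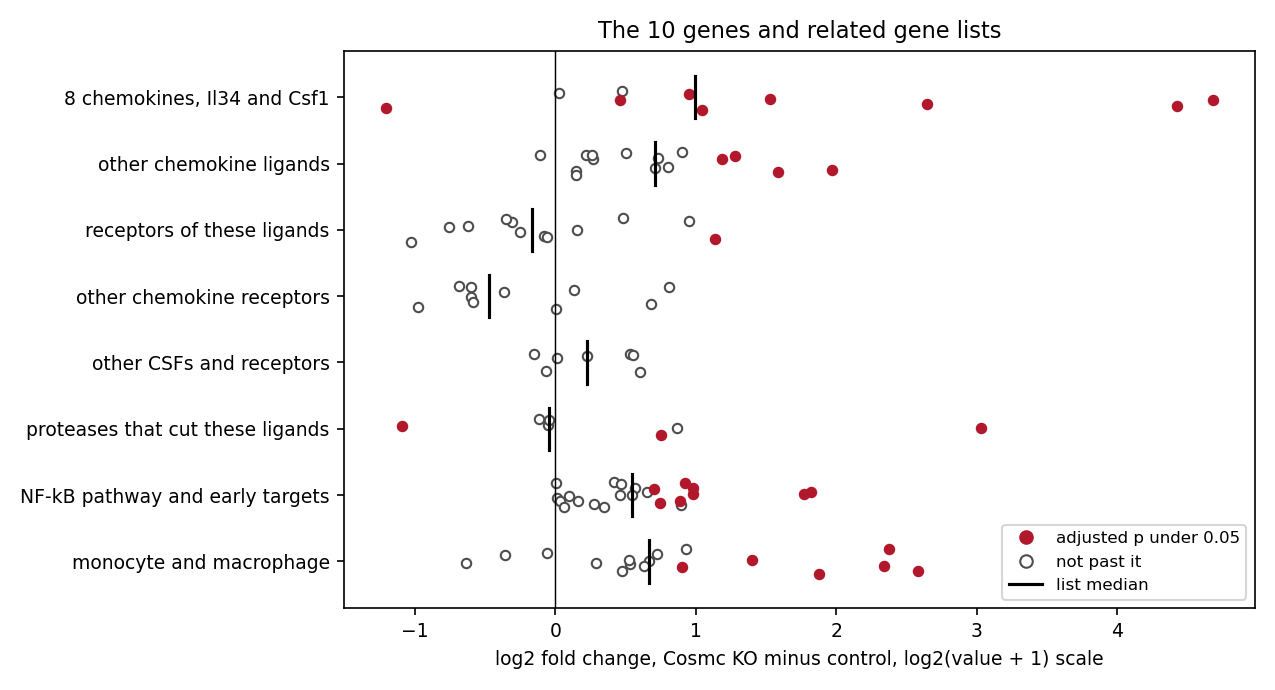
Each point is a tested gene, placed by the log2 fold change that limma gave for log2(value + 1) (above 0 is higher in Cosmc KO), with 1 row per gene list. Filled points passed an adjusted p of 0.05 in limma and black lines are list medians. The median is 0.99 for the 10 genes, 0.55 for the NF-κB list, 0.67 for the monocyte and macrophage list and -0.17 for the receptors.

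The genes whose levels followed each ligand most closely were ranked by Pearson r over the 9 libraries after subtracting the group means, on the log2(value + 1) scale, as a description that shares libraries and depth. For Cxcl12 these were C130021I20Rik (r = 0.99), Kcnt2 (0.98) and Tet2 (0.98). C130021I20Rik and Tet2 fell too, by 1.16 and 0.53 on the log2 scale (limma adjusted p = 0.0187 and 0.0476), and Kcnt2 was not called (-0.66, adjusted p = 0.128). For Il34 they were H6pd (0.98), Eps15l1 (0.97) and Ist1 (0.97), and H6pd rose (limma 0.57, adjusted p = 0.00974). For Csf1 they were RP23-381H23.1 (0.98), 1700109K24Rik (0.94) and Srpk3 (0.94), none called. For Cxcl2 they were Cib2 (0.97), Tubb3 (0.96) and Nek6 (0.96), of which Nek6 rose (limma 1.16, adjusted p = 0.00229). The nearest genes of the other ligands were Rubcnl, 1700012D14Rik and Mettl3 for Ccl2 (0.93 to 0.96), Trabd2b, C1ql3 and Mul1 for Ccl20 (0.97 to 0.98), and Lrrc27, Ddx55 and Procr for Cxcl1 (0.94 to 0.95). For Cxcl10 they were Mcm6, 4632404H12Rik and Exosc2 (0.95 to 0.96), for Cxcl16 Acat3, Slc35e3 and Ap1s1 (0.97 each), and for Cx3cl1 4930458D05Rik, Xrcc3 and Jak3 (0.96 to 0.98). None of the 18 genes of these last 6 ligands was called, and none of the 10 ligands was among the nearest genes of another.

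Of 18 monocyte and macrophage markers 17 were tested, 6 rose, none fell and 11 were not called, with a median log2 fold change of 0.67. Limma called 7.74% of all genes. At an unadjusted limma p under 0.05, 8 were higher and 1 lower, and DESeq2 also called 8 higher and 1 lower. Of all genes, in either direction, 4603 of 16764 passed that unadjusted p and DESeq2 called 16.0%. The marker lower at the unadjusted p was Mrc1, the macrophage mannose receptor gene, named after its values were seen, which averaged 2834 ± 929 in Cosmc KO and 4251 ± 350 in control (limma -0.63 ± 0.18, adjusted p = 0.0578). Without 1 library limma called 4 to 7 higher, with 4 each without Cosmc KO 2, 3 or 4 or control 1 or 3, and 0 to 2 lower, the 2 being without Cosmc KO 1. Those fits called 3.12% to 29.1% of all genes, the 29.1% being without Cosmc KO 1. C1qa, which encodes a complement protein made by macrophages, had 157, 460, 375 and 164 normalised counts in Cosmc KO 1 to 4 and 34.9, 46.5, 25.0, 54.7 and 60.4 in controls 1 to 5 (limma 2.58 ± 0.39, adjusted p = 0.00445). Its partners C1qb (limma 2.38 ± 0.38, adjusted p = 0.00624) and C1qc (2.34 ± 0.33, adjusted p = 0.00344) rose with it, as did the endotoxin co-receptor gene Cd14 (0.90 ± 0.14, adjusted p = 0.00517). The score over the list was 8.65 to 8.99 in Cosmc KO and 7.31 to 8.22 in control, without overlap. The summed level overlapped, at 27729 to 46431 in Cosmc KO and 31357 to 44823 in control, and no marker was at 0 in any library. With this score as a covariate, added after seeing the data, none of the 10 genes was called by limma (3 were higher at an unadjusted p under 0.05) and 0.0656% of all genes were. In this limma fit Ccl20 stood at 5.37 ± 1.03 on the log2 scale (adjusted p = 0.149), Ccl2 had 2.16 ± 0.94 (adjusted p = 0.532) and Cxcl10 0.19 ± 0.39 (adjusted p = 0.909). The score does not overlap between the groups, so the 2 cannot be told apart in this fit.

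Markers of the leukocytes that several of these ligands attract were not called. No neutrophil marker of 5 with values, no T cell marker of 10 and no B cell marker of 5 passed the limma threshold, with medians of -0.44, -0.36 and -0.73. At an unadjusted limma p under 0.05 there were 1, 0 and 3 lower and none higher, edgeR called none, and DESeq2 called 1 neutrophil marker lower. Of all genes, limma called 7.74%, edgeR 8.71% and DESeq2 16.0%, and 4603 of 16764 passed the unadjusted p. The neutrophil gene S100a9 averaged 287 ± 194 in Cosmc KO and 321 ± 174 in control (limma -0.19 ± 0.47, adjusted p = 0.811), and Ltf averaged 235 ± 23.8 in Cosmc KO and 320 ± 36.4 in control (limma -0.44 ± 0.13, adjusted p = 0.0673). Cd8a, a T cell gene, averaged 143 ± 44.4 in Cosmc KO and 145 ± 63.5 in control (limma adjusted p = 0.995), and Lck averaged 220 ± 22.6 in Cosmc KO and 240 ± 75.1 in control (limma adjusted p = 0.834). The B cell gene Cd79a averaged 179 ± 88.6 in Cosmc KO and 278 ± 91.2 in control (limma -0.72 ± 0.36, adjusted p = 0.226). Cd79b averaged 154 ± 63.4 in Cosmc KO and 248 ± 76.0 in control (limma -0.73 ± 0.30, adjusted p = 0.152).

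Resident cell markers were read in the same way. All 20 proximal tubule markers had a positive log2 fold change, with a median of 1.38. None was called by limma or edgeR, 5 passed an unadjusted limma p under 0.05 and DESeq2 called 4 higher. Of all genes, in either direction, 4603 of 16764 passed that unadjusted p and DESeq2 called 16.0%. The counts of 5 and 4 in 20 are near these shares and are no result about the tubule list. Without Cosmc KO 1, limma called 17 of the 20 higher and 29.1% of all genes in either direction. The tubule transporter gene Slc34a1 had 7676, 86187, 79037 and 34857 normalised counts in Cosmc KO 1 to 4 and 7217, 28237, 28074, 14606 and 5518 in controls 1 to 5. The tubule-secreted Gpx3 averaged 243757 ± 176051 in Cosmc KO and 82999 ± 48778 in control (limma adjusted p = 0.217). Of 10 endothelial markers 1 rose, Eng (limma 0.86 ± 0.13, adjusted p = 0.00539), and of 10 mesangial and vascular muscle markers 2 rose, Tagln (1.09 ± 0.18, adjusted p = 0.00662) and Acta2 (0.60 ± 0.15, adjusted p = 0.0386). A count of 1 in 10 is near the 7.74% of all genes called and is no result about the endothelial list. The medians of the 2 lists were 0.05 and 0.08, and 5 and 7 of their 10 markers had a positive log2 fold change. Of 9 parietal epithelial markers 3 rose, Aldh1a2 (limma 1.96 ± 0.18, adjusted p = 0.000357), Akap12 (0.77 ± 0.09, adjusted p = 0.00115) and Cldn1 (1.70 ± 0.25, adjusted p = 0.00394), and Ncam1 fell (-0.97 ± 0.17, adjusted p = 0.0105). Of these 9 markers 7 were higher and 1 lower both with DESeq2 and at an unadjusted limma p under 0.05. The shares of all genes are those given with the tubule markers, 16.0% and 4603 of 16764. Limma called 8 higher without Cosmc KO 1 and 3 higher without any other single library. The podocyte genes Synpo (limma -0.92 ± 0.22, adjusted p = 0.0350) and Wt1 (-1.09 ± 0.27, adjusted p = 0.0376) fell as well. The part of these cell types in the chemokine results was not tested beyond the covariate fits given.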

How the data were processed

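Poly(A) RNA of glomeruli from 4 Cosmc KO and 5 control mice was sequenced, and groups, numbers, ages and genotypes come from the labels. Tools named in the submitters' processing notes are featureCounts from Subread 1.5.2, the aligner STAR 2.5.2b and DESeq2, with the build GRCm38. Annotation release and strand setting are not given in the sources used here. For each library the deposited table gives a signal, which the values show to be gene counts that the authors divided by 1 size factor. Deposited beside it, per the file headers, are the authors' log2 fold changes, a Wald score and p-values. In each library 100% of values were whole multiples of 1 step to within 0.01 of a step, which gives back the reads. The step of control 3 was 1.0013, close to 1, though its values were not whole numbers (7314.61 for Cxcl12). Count tests were also run without control 3.

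Differences were tested with limma 3.58.1 (R 4.3.3) on log2(value + 1), allowing for a mean-variance trend, over the 16764 genes that reached 10 in 4 or more libraries, with Benjamini-Hochberg adjustment over all of them. All 9 libraries entered with group as the only term. The count test edgeR 4.0.16 and DESeq2 1.42.0 were alternatives on recovered reads, and the steps were tested on simulated data. Every pair of libraries differed by more than counting noise (chi-square per degree of freedom 26.1 or more). Each library is labelled as a numbered animal, and p-values measure the spread between these. Counting intervals are exact binomial at the 95% level.

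The 10 genes, the lists and the tests were chosen with earlier results of these data known. Named were the 10 genes, C1galt1c1, up to 4 called members of each list by smallest p (or the 2 most abundant where none was called), and the 3 nearest genes of each called ligand, of Il34 and of Csf1. One gene that this rule names is not reported here. Numbers 1 to 4 occur in both groups and go with age. After subtracting group means, libraries with the same number had correlations of 0.54, 0.51, 0.34 and 0.27, all above 0.1. The paired fit (4 pairs, control 5 left out) is therefore given where it changes a call of the 10 genes. It is also given for Cxcl1, whose call it kept, and for the receptors. Some libraries with different numbers correlated as well (control 2 with Cosmc KO 3 at 0.53), and a shared litter is not stated. Windows before start sites are from RefSeq tables (GRCm38.p6), gene positions and exon lengths from GENCODE vM21.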

Additional observations from a re-analysis of the deposited data

Results flagged for a closer look

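Over 118 groups of 4 or 5 values examined for a library far from the rest, 5 were singled out, where chance alone gives about 1 in 20. The measure is the gap of the farthest library to its nearest neighbour, as a share of the whole range of its group. In control glomeruli, Csf1 of control 4 (5680 normalised counts) had a gap of 0.737 of the range. Among Cosmc KO libraries, Ccl17 of Cosmc KO 2 (40.4 normalised counts) had a gap of 0.839, and Ccl9 of Cosmc KO 4 (216 normalised counts) had one of 0.848. The monocyte and macrophage score of Cosmc KO 2 (8.99) had a gap of 0.855 and the neutrophil score of Cosmc KO 1 (7.53) one of 0.832. None of the 8 chemokines nor Il34 had such a library in either group.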

How the results depend on the processing

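Of the 10 genes 8 were called, and this count stayed at 8 with a pseudocount of 0.5 or 4, no filter and TMM scaling. It was 7 after scaling to the library totals, with edgeR and with age as a covariate (Cxcl1 lost each time), and 9 with the authors' test, DESeq2 and the replicate block (Il34 gained). DESeq2 on recovered reads called 2699 of 16866 genes, the same number as the authors' test. These 2 therefore do not count as separate methods. The block, given beside Il34 and Cxcl1 above, kept the call of Cxcl1 and changed no call of the 10 except that of Il34. A filter of 50 left 7 of the 10 genes and 5 calls, and edgeR without control 3 also gave 5. Cre-carrying controls alone gave 3 calls, the tubule score 5, the podocyte score 1, the macrophage score 0, and the 7 libraries other than Cosmc KO 2 and 3 gave 2. Fits without 1 library gave 4 to 8 calls, with 4 without Cosmc KO 3 and 5 without Cosmc KO 2 or control 1; Ccl2, Ccl20, Cxcl2 and Cxcl16 were called in all 9 such fits. The share of all genes called, 7.74%, became 16.0% with the authors' test and DESeq2, 13.1% with DESeq2 without control 3, 16.6% with the replicate block, 2.61% with Cre-carrying controls alone, and 4.54%, 1.83% and 0.0656% with the tubule, podocyte and macrophage scores. It became 1.82% without Cosmc KO 2 and 3. Each of the 9 fits without 1 library moved it by over 1.5 times, to between 3.12% (without Cosmc KO 3) and 4.94% in 8 of them and to 29.1% without Cosmc KO 1. The 16 calls in the ligand, receptor, growth factor, protease and NF-κB lists became 9 with Cre-carrying controls alone, 5 with the podocyte score, 0 with the macrophage score, 5 without Cosmc KO 2 and 3, and 10 to 24 without 1 library (10 without Cosmc KO 2). The sign of Csf1, which was not called, turned with Cre-carrying controls alone (-0.0135), the macrophage score (-0.19) and without Cosmc KO 4 or 1 (range -0.0467 to 0.148), and that of Bcl3 with the macrophage score (-0.00189). The cause of these changes was not tested, except that filtering removes genes. Low control counts limit the fold changes of Ccl2 and Ccl20.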
